A study of Mus musculus with 6 samples.

Results

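The baseline RNA of SmoWT-MB cells was described from the arrays whose title names DMSO, the solvent control. These are 2 of the 6 Illumina mouse bead arrays of the series, and both come from cells kept in DMSO for 6 h. SmoWT-MB is, per the labels, a mouse medulloblastoma line deficient in Ptch, and the same line underlies every group. The labels give no DMSO concentration and do not say whether the DMSO samples came from separate cultures, so the spread between them may be technical. The other arrays carry RNA of the same line after a bromodomain inhibitor or a Smoothened inhibitor and entered only the normalization. The labels name a cell line, not tumour tissue, and do not say whether it is 1 clone.

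Medulloblastoma is a tumour of the cerebellum, and its hedgehog class arises from the precursors of granule neurons. Patched, the hedgehog receptor, holds Smoothened inactive, and once Patched is lost Smoothened signals through the primary cilium to the Gli transcription factors without any ligand. The Gli factors then drive genes of proliferation such as the G1 cyclin gene Ccnd1, along with feedback genes of the pathway such as Ptch1 and Hhip.

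A probe was counted as above background where its detection p, its rank among the negative control beads of the array, was under 0.01 on both DMSO arrays. A gene was above background where at least 1 of its probes was, and at background where no probe passed on either array. By this rule 8622 of 18841 protein-coding genes were above background, which is 45.8%, while 9796, or 52.0%, were at background and 423 passed on 1 array alone. The 45.8% is the share to be read beside each count of a list or family below. Over probes, 15792 of 45281 passed on both arrays (34.9%), and over all symbols, predicted transcripts and clones included, 11259 of 30584 passed (36.8%). Array 1 had 16466 probes above background and array 2 had 16230. At background means only that the signal did not stand above the negative beads, since a probe can fail to report a transcript that is there. In RNA from whole cultures, fewer cells of a type and less RNA per cell cannot be told apart.

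Levels are given as log2 normalized intensities, for DMSO array 1 first and array 2 second. The lowest level counted as above background was 5.19 on array 1 and 5.23 on array 2. Genes above background had a median of 8.33, and the middle part of them lay between 6.86 and 9.81, as quartiles. Of these genes, 966 (11.2%) lay under 6 and 346 (4.01%) at 12 or more. Bead probes differ in how brightly they report a transcript, so the levels can be set side by side between arrays but not between genes, and no order of abundance is drawn from them.

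**Figure D1:**
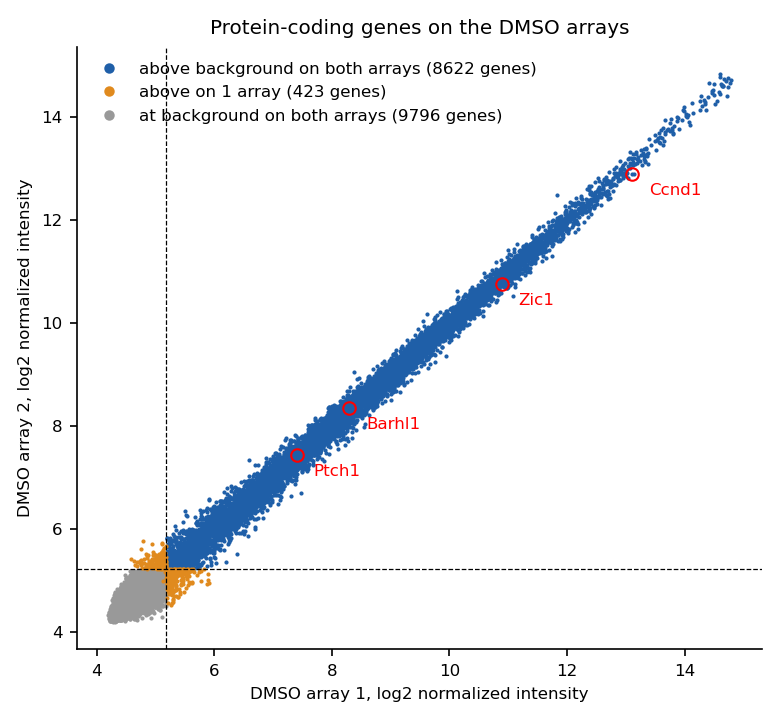
Log2 normalized intensity of each protein-coding gene on DMSO array 1 (x axis) and DMSO array 2 (y axis), coloured by whether the gene was above background on both arrays, on 1 array or on neither, with dashed lines at the lowest level above background on each array. The 8622 genes above background lie along the diagonal, and the circled Barhl1, Zic1, Ptch1 and Ccnd1 are all among them.

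After quantile normalization, which gives arrays the same distribution, the DMSO arrays had nearly the same levels. Their mean raw intensities were 408 and 344. Among genes above background, which had to pass on both arrays, the median absolute difference was 0.11 on the log2 scale. With scaling to a common median in its place it was 0.19. By quantile normalization the 95th percentile was 0.34, and 79 genes (0.916%) differed by 0.5 or more and 0 by 1 or more. Pearson's r between the arrays was 0.996 across these genes, which are not independent replicates. The largest differences were in the anion exchanger gene Slc26a6 (5.50 and 6.36), in Cox11, an assembly factor of cytochrome oxidase (6.20 and 5.36), and in the DNA polymerase gene Polb (7.48 and 6.71). Mansc1 (5.53 and 6.28), Pofut2 (6.59 and 7.34), Edem1 (5.34 and 6.06), Dyrk1a (6.58 and 5.87), Dbn1 (5.55 and 6.25), Vps26a (6.03 and 5.34) and Pqbp1 (6.69 and 6.01) completed the set of 10. All 10 had levels under the median of 8.33.

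Families of sensory organs and families that every cell uses show what the call can resolve. Among olfactory, vomeronasal and bitter taste receptor genes, which serve the sensory organs, 3 of 1277 were above background (0.235%). These were Olfr724 (5.62 and 6.00), Olfr748 (5.33 and 5.42) and Olfr802 (5.62 and 5.76), all close to the lowest level counted. None of 37 keratin-associated protein genes, 39 beta-defensin genes or 30 interleukin genes passed. Of the families every cell uses, 59 of 68 cytosolic ribosomal protein genes (86.8%) and 67 of 73 mitochondrial ribosomal protein genes (91.8%) passed. So did 34 of 35 NADH dehydrogenase genes (97.1%) and 30 of 39 proteasome genes (76.9%). These families were taken by symbol and also hold relatives of narrower use. Of such relatives Rpl3l, Psma8, Psmb11, Psmb8 and Psmb9 were at background. Rpl14, Rpl17, Rpl6, Rps20 and Rps23, which encode core parts of the ribosome, were at background too, as was the succinate dehydrogenase gene Sdha. A gene at background on these arrays may therefore still be transcribed.

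The share above background went with the number of probes per gene. Of genes with 1 probe 35.2% were above background, of genes with 2 probes 52.5%, and of genes with 3 or more 68.4%. Of 4886 genes above background with several probes, 1981 had every probe above it, and 2701 had at least 1 probe at background on both arrays. Where such a gene is named below, the number of probes that passed is given beside it.

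The 4 genes chosen beforehand to mark the cells were all above background, where 45.8% of all protein-coding genes were. They were chosen with earlier results of these data known, so their count tests nothing. Barhl1, a homeobox factor of the granule neuron lineage, stood at 8.30 and 8.36, and the zinc finger factor Zic1, which granule neuron precursors carry, at 10.89 and 10.76. Ptch1, the hedgehog receptor gene and a target of the pathway, stood at 7.41 and 7.44 with 1 of its 2 probes, while the other lay at background with 4.66 and 4.74. The files do not place either probe relative to the part of the gene that is deficient, so Ptch1 does not check that label. Ccnd1 stood at 13.11 and 12.90 by its brightest probe, and all 3 of its probes passed, the dimmest at 9.91 and 9.87.

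The 120 bases before the start of a gene are shown for markers above background and for genes of other tissues at background. The sequences are from RefSeq on the plus or minus strand of GRCm38.p6, with each CG dinucleotide in capitals. Barhl1, Zic1 and Ptch1 are shown because they mark the cells, and the liver albumin gene Alb, the heart myosin gene Myh6 and the olfactory receptor gene Olfr1 as genes of tissues outside the brain.
Barhl1, above background, chr2:28916669-28916788, minus strand: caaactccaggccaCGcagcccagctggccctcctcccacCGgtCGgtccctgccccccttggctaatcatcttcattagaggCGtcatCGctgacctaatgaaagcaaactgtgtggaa
Zic1, above background, chr9:91365769-91365888, minus strand: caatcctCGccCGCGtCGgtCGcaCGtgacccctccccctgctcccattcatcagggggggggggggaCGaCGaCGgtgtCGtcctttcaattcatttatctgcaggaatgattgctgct
Ptch1, above background, chr13:63565736-63565855, minus strand: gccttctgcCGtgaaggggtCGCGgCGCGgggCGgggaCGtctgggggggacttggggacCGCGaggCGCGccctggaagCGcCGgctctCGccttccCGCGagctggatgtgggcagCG
Alb, at background, chr5:90460750-90460869, plus strand: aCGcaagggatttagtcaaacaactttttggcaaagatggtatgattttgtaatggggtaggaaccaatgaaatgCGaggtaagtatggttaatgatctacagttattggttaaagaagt
Myh6, at background, chr14:54966608-54966727, minus strand: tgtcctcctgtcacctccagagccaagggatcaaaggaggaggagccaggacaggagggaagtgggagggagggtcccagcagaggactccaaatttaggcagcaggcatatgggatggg
Olfr1, at background, chr11:73399496-73399615, minus strand: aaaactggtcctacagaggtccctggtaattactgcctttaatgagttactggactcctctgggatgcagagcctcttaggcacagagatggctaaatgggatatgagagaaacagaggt
Beside the 5 CG dinucleotides of Barhl1, the 10 of Zic1 and the 17 of Ptch1 stood 2 in Alb, 0 in Myh6 and 0 in Olfr1. Over the full 300 bases of each promoter, from 250 before the start to 50 after it, the counts were 9, 31 and 47 for the markers, against 3, 2 and 1. The median count was 22 in promoters of genes above background, 6 at background and 15 in all. Barhl1 thus lay below the median of all promoters, and Zic1 and Ptch1 above it.

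Of the transcription factors of the granule neuron lineage 19 of 31 were above background (61.3%, beside 45.8% of all protein-coding genes), with a median of 9.49. Every probe passed in 13 of the 31, or 41.9%, beside 30.3% of all genes under that stricter rule. Zic2 (8.07 and 7.69), Zic4 (9.23 and 9.21, 4 of 5 probes) and Zic1 passed, while Zic5 was at background. The TALE homeobox gene Meis1 stood at 10.97 and 11.05, the midbrain and hindbrain factor gene En2 at 10.53 and 10.20, and the zinc finger factor gene Insm1, which acts in newly formed neurons, at 11.29 and 11.36. All these levels lay well above the lowest one counted. The arrays were close for Zic4, Meis1 and Insm1 and further apart for Zic2 and En2.

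The nuclear factor I genes, which control the maturation of granule neurons, were all above background: Nfia at 9.73 and 9.70 (1 of 2 probes), Nfib at 11.89 and 11.76 (6 of 7), Nfix at 11.17 and 11.31 (4 of 4) and Nfic at 8.28 and 8.34 (3 of 4). Among SoxC genes of young neurons, Sox4 stood at 9.46 and 9.53 and Sox11 at 12.24 and 12.33 (2 of 3 probes). Otx1 (8.71 and 9.11) and Otx2 (10.65 and 10.61), Etv1 (8.01 and 8.05), Neurod2 (6.66 and 6.86, 1 of 2 probes) and Uncx (6.55 and 6.81) also passed. Lhx2 (5.49 and 5.53) and Lhx9 (5.73 and 5.31, 1 of 2 probes) passed close to the lowest level.

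The lineage genes at background included the one most closely tied to it. Atoh1, the proneural factor that founds the granule lineage, gave a raw intensity of 41.4 and 42.4 on its only probe, with detection p-values of 0.775 and 0.778. Pax6, another factor of granule precursors, gave detection p-values of 0.199 and 0.253 on the brighter of 2 probes. Neurod1, of differentiating granule neurons, came nearer with 0.031 and 0.016 and still missed the threshold on both arrays. Barhl2, En1, Gbx2, Mab21l1, Meis2, Nhlh1 and Nhlh2 were also at background. The granule precursor picture was thus mixed, with Barhl1, Zic1, Zic4, Meis1, Insm1 and Nfi genes above background and Atoh1 and Pax6 not.

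Their promoters are shown because they are rich in CG although the genes were at background, beside that of Prm1, which is poor in CG although the gene was above background.
Atoh1, at background, chr6:64729005-64729124, plus strand: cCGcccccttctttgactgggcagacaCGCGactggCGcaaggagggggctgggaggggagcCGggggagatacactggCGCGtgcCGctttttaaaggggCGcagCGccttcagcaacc
Neurod1, at background, chr2:79456637-79456756, minus strand: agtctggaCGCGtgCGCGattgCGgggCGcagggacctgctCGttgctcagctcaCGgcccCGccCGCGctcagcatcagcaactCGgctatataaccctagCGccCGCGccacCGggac
Pax6, at background, chr2:105668776-105668895, plus strand: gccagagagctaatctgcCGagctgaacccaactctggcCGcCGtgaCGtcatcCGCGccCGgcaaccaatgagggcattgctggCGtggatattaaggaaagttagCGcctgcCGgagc
Prm1, above background, chr16:10796824-10796943, minus strand: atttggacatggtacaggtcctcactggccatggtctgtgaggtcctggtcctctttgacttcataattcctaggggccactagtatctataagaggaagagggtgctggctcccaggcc
Observed over expected CG, the count divided by that which the C and G content predicts, was 0.84 in Atoh1, 0.84 in Neurod1 and 0.70 in Pax6 over 300 bases, and 0.05 in Prm1. Among the markers shown earlier it was 0.48 in Barhl1, 0.97 in Zic1 and 1.09 in Ptch1, beside a median of 0.64 in all promoters.

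Genes of young, migrating neurons were above background in 16 of 24 cases (66.7%, median 8.43), beside 45.8% of all genes. With every probe required 8 passed, or 33.3%, near the 30.3% of all genes. Reln, the secreted guide of cortical and cerebellar layering, stood at 10.99 and 11.13 (2 of 5 probes). Dcx, a microtubule protein of migrating neurons, stood at 8.93 and 9.02 (2 of 3), and the chemokine receptor gene Cxcr4, which holds granule precursors in the outer layer, at 9.52 and 9.29. Map2 (9.64 and 9.52, 3 of 8 probes), the axonal adhesion gene Cntn2 (8.83 and 8.89, 1 of 4 probes), the polarity gene Pard6a (8.95 and 8.97) and the semaphorin receptor gene Plxna2 (8.88 and 8.74, 1 of 2 probes) passed as well. At background were the neuronal tubulin gene Tubb3, Stmn2, Mapt and L1cam, which mark extending axons, and Jam3, Nfasc and Unc5c.

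Of the genes of mature granule neurons 8 of 18 passed (44.4%), a share close to that of all genes. Cbln1, a secreted organizer of the parallel fibre synapse, stood at 11.59 and 11.48. Calbindin 2 (Calb2, 8.01 and 8.36) and the Rac activator gene Tiam1 (9.35 and 9.36) were above background. Gabra6, the GABA receptor subunit that defines mature granule neurons, was at background, and so were the vesicular glutamate transporter gene Slc17a7, Snap25, Gabrd, Cbln3, Grm4, Kcnd2 and Fat2.

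For other cerebellar neurons the counts are set beside the 45.8% of all genes. None of 12 genes of GABAergic and glycinergic precursors passed, among them Ptf1a, Pax2 and the GABA synthesis genes Gad1 and Gad2. Of unipolar brush cell and nuclear neuron genes 3 of 8 passed, and these were Tbr1 (5.92 and 6.14), Slc17a6 (5.46 and 5.66, 1 of 2 probes) and Irx3 (7.58 and 7.73), while Eomes and Lmx1a were at background. Of Purkinje cell genes 7 of 15 passed (46.7%), a share near that of all genes, and 3 did with every probe. Lhx1 stood at 10.67 and 10.81 with both probes, the calcium release channel gene Itpr1 at 9.78 and 9.84, and Pcp2 at 8.57 and 8.64 (1 of 2 probes). Calb1, Pcp4, Car8 and Ppp1r17, also of Purkinje cells, were at background.

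**Figure D2:**
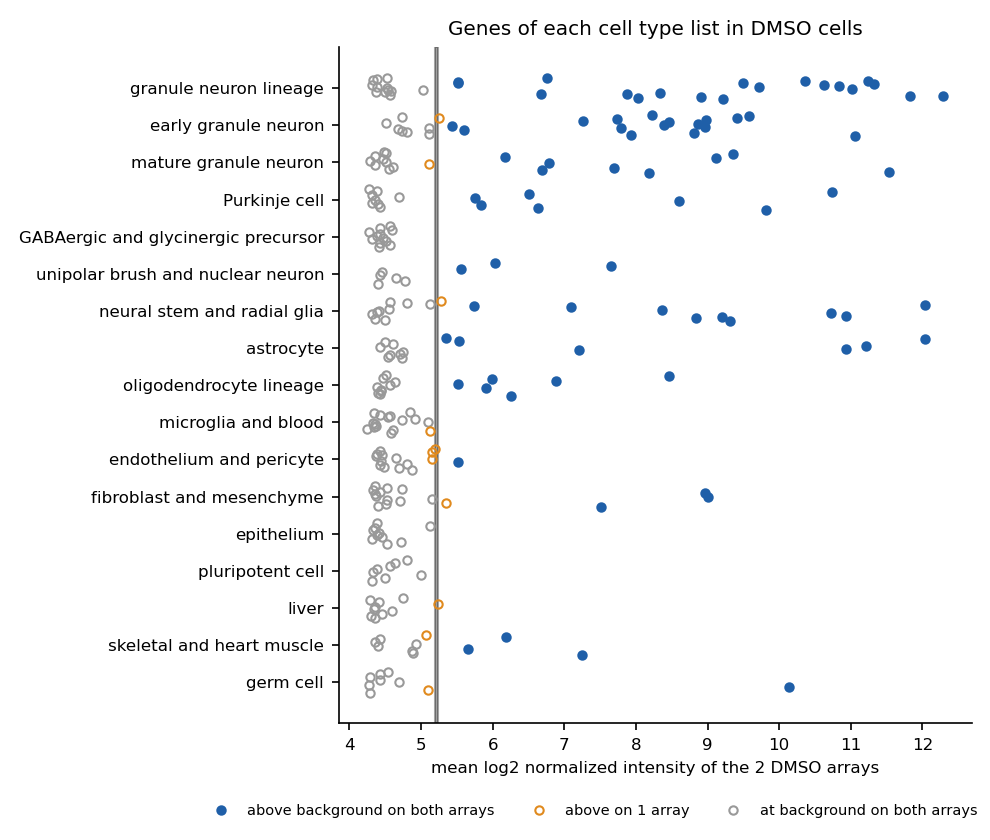
Mean log2 normalized intensity (x axis) of the genes of each cell type list (rows), with filled points for genes above background on both arrays, open orange points for genes above on 1 array and open grey points for genes at background; the vertical band marks the lowest level above background. Filled points beyond 8 lie in the granule neuron rows and also in others, among them neural stem and radial glia, astrocytes and Purkinje cells. The rows of GABAergic precursors, microglia and blood, epithelium, pluripotent cells and liver hold no filled point.

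Stem cell and glial genes passed at shares near the 45.8% of all genes. Of neural stem and radial glia genes 9 of 19 passed (47.4%). Sox9, of glial and stem cells, stood at 11.98 and 12.09, the intermediate filament gene Nes at 9.33 and 9.29, its relative Vim at 10.67 and 10.78 (1 of 2 probes), and the glutamate transporter gene Slc1a3 at 10.92 and 10.95. Sox2 passed on array 2 alone (5.18 and 5.38), and Fabp7, Prom1, Msi1 and Id4 were at background. Of astrocyte genes 6 of 14 passed (42.9%), with the gap junction gene Gja1 at 11.00 and 11.42, and with Gfap, Aqp4, Aldh1l1 and S100b at background. Of oligodendrocyte lineage genes 6 of 15 passed (40.0%) and 3 did with every probe, with Mbp at 8.59 and 8.33 (2 of 5 probes) and Pdgfra at 6.79 and 6.99 (1 of 2), and with the lineage factor genes Olig1, Olig2 and Sox10 at background.

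In the lists for microglia, blood and cells outside the nervous system most genes were at background, with 3 genes of the fibroblast list well above it. Not every gene of these lists is confined to such cells. None of 16 microglia and blood genes passed, Ptprc, Aif1 and the complement genes C1qa and C1qb among those at background, and their summed raw intensity was 857 and 826. None of 10 epithelial, 8 pluripotent cell and 10 liver genes passed. Of endothelium and pericyte genes 1 of 15 passed, the proteoglycan gene Cspg4 (5.41 and 5.61), and Pecam1 and Cdh5 did not. Cspg4 is also counted in the oligodendrocyte list. Of fibroblast genes 3 of 16 passed, namely Col5a1 (8.98 and 8.96), Thy1 (8.96 and 9.06, 1 of 2 probes) and Fn1 (7.49 and 7.54, 1 of 4 probes), while the collagen genes Col1a1, Col1a2 and Col3a1 were at background. Thy1 is also known from neurons.

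Some genes of distant tissues were above background. Prm1, which encodes the protamine that packs sperm DNA, stood at 10.15 and 10.14, and its second probe at 10.19 and 9.93. It was the only one of 9 germ cell genes to pass, with Ddx4, Dazl and Sycp3 at background and the transition protein gene Tnp1 above it on 1 array. Among 10 muscle genes Actc1 (7.23 and 7.26, 1 of 2 probes), Acta1 (6.04 and 6.34) and Myod1 (5.95 and 5.36) passed.

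The hedgehog pathway is the one these cells are known for, and 35 of 52 of its genes were above background (67.3%, median 8.42), beside 45.8% of all protein-coding genes. Every probe passed in 24 of the 52, or 46.2%, beside 30.3% of all genes. None of the 3 ligand genes was, and the brighter of 2 Shh probes had detection p-values of 0.278 and 0.430. Of the genes for ligand release, Disp1 (6.56 and 6.84) and Hhat (5.31 and 5.47, 1 of 3 probes) passed and Scube1, Scube2 and Scube3 did not.

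Among 10 receptors and co-receptors 6 passed. Smo, the signalling receptor, stood at 9.50 and 9.52 with 3 of 3 probes, and Hhip, which binds ligand, at 7.58 and 7.53. The glypican gene Gpc3 stood at 10.70 and 10.62 (2 of 3 probes), and Cdon, a co-receptor, at 5.87 and 5.54 (1 of 2 probes). The co-receptor genes Boc and Gas1, which granule precursors carry in the mouse, were at background, as were Lrp2 and the ciliary receptor gene Gpr161.

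Of 19 transducers 16 passed (84.2%). Sufu, which restrains the Gli factors, stood at 7.44 and 7.62 (2 of 4 probes), and Stk36 at 6.88 and 6.89. The subunit genes of protein kinase A, which marks Gli proteins for cleavage, stood at 10.35 and 10.60 (Prkaca), at 12.08 and 12.04 (Prkacb) and at 11.47 and 11.52 (Prkar1a). Spop (11.40 and 11.67) and Cul3 (11.44 and 11.51), which direct Gli proteins to destruction, and the ciliary Smoothened partners Evc (8.42 and 8.42, 1 of 3 probes) and Evc2 (9.18 and 9.29) also passed. Kif7, Csnk1a1 and Efcab7 were at background.

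Of the Gli factors, Gli2, the main activator, stood at 10.86 and 11.01 with both probes and Gli3 at 8.39 and 8.45 (1 of 2 probes). Gli1, itself a target of the pathway, has 1 probe on the array, and it gave raw intensities of 46.5 and 51.3, at background. Gli1, at background, and the feedback genes Ptch1 and Hhip, above it, are counted under other roles and not as targets. Among the 12 genes listed as targets 9 passed, beside 45.8% of all protein-coding genes. They were Ccnd1, Ccnd2 (8.86 and 8.72, 3 of 4 probes), Cdk6 (7.16 and 7.14), Sfrp1 (10.80 and 10.90), Bcl2 (7.15 and 7.03), Foxm1 (8.60 and 8.76), Hsd11b2 (8.18 and 7.93), Rab34 (10.26 and 10.07) and Pdlim3 (6.71 and 6.54). Mycn, Prdm1 and Nkx6-1 were at background. Whether the pathway drove the targets that passed was not tested.

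The genes for the cilium, where the pathway signals, passed in 27 of 36 cases (median 8.41). Ift20 (11.02 and 10.83) and Arl3 (10.22 and 10.13), which serve transport in the cilium, were among them. Foxj1, a factor for motile cilia, and Rfx3, a factor for cilium genes, were at background with Ift46, Ift57 and Ofd1.

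Small panels of genes that tell human medulloblastoma classes apart were looked up in their mouse forms. Of the hedgehog class 4 of 5 passed, namely Pdlim3, Eya1 (6.23 and 6.33, 1 of 4 probes), Hhip and Sfrp1, and Atoh1 did not. Of the WNT class 1 of 5 passed, Wif1, at 9.34 and 9.21. Of Group 3 Mab21l2 (7.95 and 7.93) and Npr3 (7.32 and 7.32, 4 of 6 probes) passed of 5, and of Group 4 none of 5. The panels share genes with other lists and were made for human tumours.

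The Notch pathway, which keeps neural precursors undifferentiated, was above background in 21 of 33 genes (63.6%, median 8.15), beside 45.8% of all genes. Every probe passed in 15 of the 33, or 45.5%, beside 30.3% of all genes. The ligand gene Dll1 stood at 8.11 and 8.19 and Dner, a ligand known from Purkinje cells, at 7.44 and 7.26. Dlk1 (5.68 and 5.65, 1 of 2 probes) and Dll3 (5.24 and 5.26) passed near the lowest level, and Dll4, Jag1 and Jag2 were at background. Notch1 (8.52 and 8.56) and Notch4 (6.54 and 6.56, 1 of 2 probes) passed, and Notch2 and Notch3 did not.

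Of the transducers of Notch 11 of 15 passed, including the secretase genes Psen2 (6.21 and 6.32, 1 of 2 probes) and Ncstn (11.12 and 11.10, 3 of 4 probes) and the coactivator genes Maml1 (6.58 and 6.39) and Maml2 (9.31 and 9.10). Numb (9.64 and 9.84) and Numbl (6.97 and 6.88), which restrain Notch, passed with all their probes. Rbpj, the DNA-binding partner of Notch, was at background, with Adam10, Lfng and Maml3. The effector genes Hes1 (7.08 and 7.11), Hes5 (8.35 and 8.37), Hes6 (9.63 and 9.68) and Hey1 (9.70 and 9.54) were above background, and Hey2, Heyl and Nrarp were at background.

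In the Wnt pathway, which acts in many developing tissues, 20 of 63 genes passed (31.7%). Of 19 ligand genes 2 passed, Wnt4 (6.80 and 6.94) and Wnt5a (7.17 and 7.34), with all of their probes. Of 17 receptors 7 passed, among them Fzd7 (9.45 and 9.72, 1 of 2 probes) and Ryk (11.58 and 11.67). The antagonist genes Sfrp1 and Wif1 passed, as did Sfrp2 (7.82 and 7.81), of 11. Beta-catenin (Ctnnb1, 11.61 and 11.38, 2 of 3 probes) and Axin1 (9.95 and 10.15) passed as transducers.

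For BMP and TGF-beta signalling 20 of 40 genes passed, with 8 of 12 receptors and 4 of 11 ligands. The receptor genes Acvr2b (10.67 and 10.73) and Tgfbr1 (10.47 and 10.28, 1 of 4 probes), the BMP antagonist gene Chrd (9.28 and 9.24) and Smad3 (9.97 and 10.04) were above background, and Bmp2, Bmp4, Bmp6 and Bmp7 were at background. Of 35 growth factor and chemokine ligand genes 13 passed (37.1%). Ptn (11.21 and 11.32, 1 of 2 probes), Pdgfa (10.86 and 10.62), Vegfb (9.78 and 9.87), Igf2 (9.38 and 9.41) and Vegfa (9.35 and 9.23, 2 of 3 probes) were among them, and Igf1, Fgf1, Fgf2, Bdnf, Egf and Ccl2 were at background.

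Receptor tyrosine kinases, through which growth factors act, were above background in 24 of 57 genes (42.1%, median 8.12), a share close to that of all genes. Egfr stood at 10.32 and 10.21 with 4 of 4 probes and Erbb2 at 6.77 and 6.49, while Erbb3 and Erbb4 were at background. The insulin-like growth factor receptor gene Igf1r stood at 8.65 and 8.85 with both probes, and Insr and Insrr were at background. Fgfr2 (8.14 and 8.15, 1 of 4 probes) and Fgfr1 (5.41 and 5.52, 1 of 2) passed and Fgfr3 and Fgfr4 did not. Kit (7.89 and 7.90, 1 of 3 probes) and Pdgfra passed, Csf1r passed on array 2 alone (4.95 and 5.32), and Flt3 and Pdgfrb were at background.

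None of the 5 receptors for VEGF and angiopoietin passed, and Kdr did so on array 1 alone, with Flt1, Flt4, Tek and Tie1 at background. Ntrk3, the receptor of neurotrophin 3, stood at 8.71 and 8.32 (3 of 3 probes) and Ntrk2 at 5.68 and 5.48 (1 of 4). Of the ephrin receptors 5 of 13 passed. They were Epha3 (9.16 and 9.18, 3 of 4 probes), Epha7 (6.95 and 7.07), Ephb1 (9.50 and 9.58, 1 of 2), Ephb2 (8.09 and 8.08, 2 of 4) and Ephb4 (8.86 and 8.99). Axl (6.91 and 6.66, 1 of 2) and Tyro3 (5.86 and 5.81) passed and Met, Mertk and Mst1r did not.

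Of the other tyrosine kinase receptors Aatk (10.11 and 10.17), Lmtk2 (9.27 and 9.48, 1 of 2 probes), Ror2 (8.85 and 8.66), Ddr1 (8.44 and 8.42, 1 of 2), Ddr2 (6.02 and 6.30), Ptk7 (5.99 and 6.11) and Ryk were above background. Alk, at 5.19 and 5.41 (1 of 2 probes), lay at the lowest level counted on array 1. Ret, Ltk, Ros1, Ror1, Musk, Lmtk3 and Styk1 were at background.

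**Figure D3:**
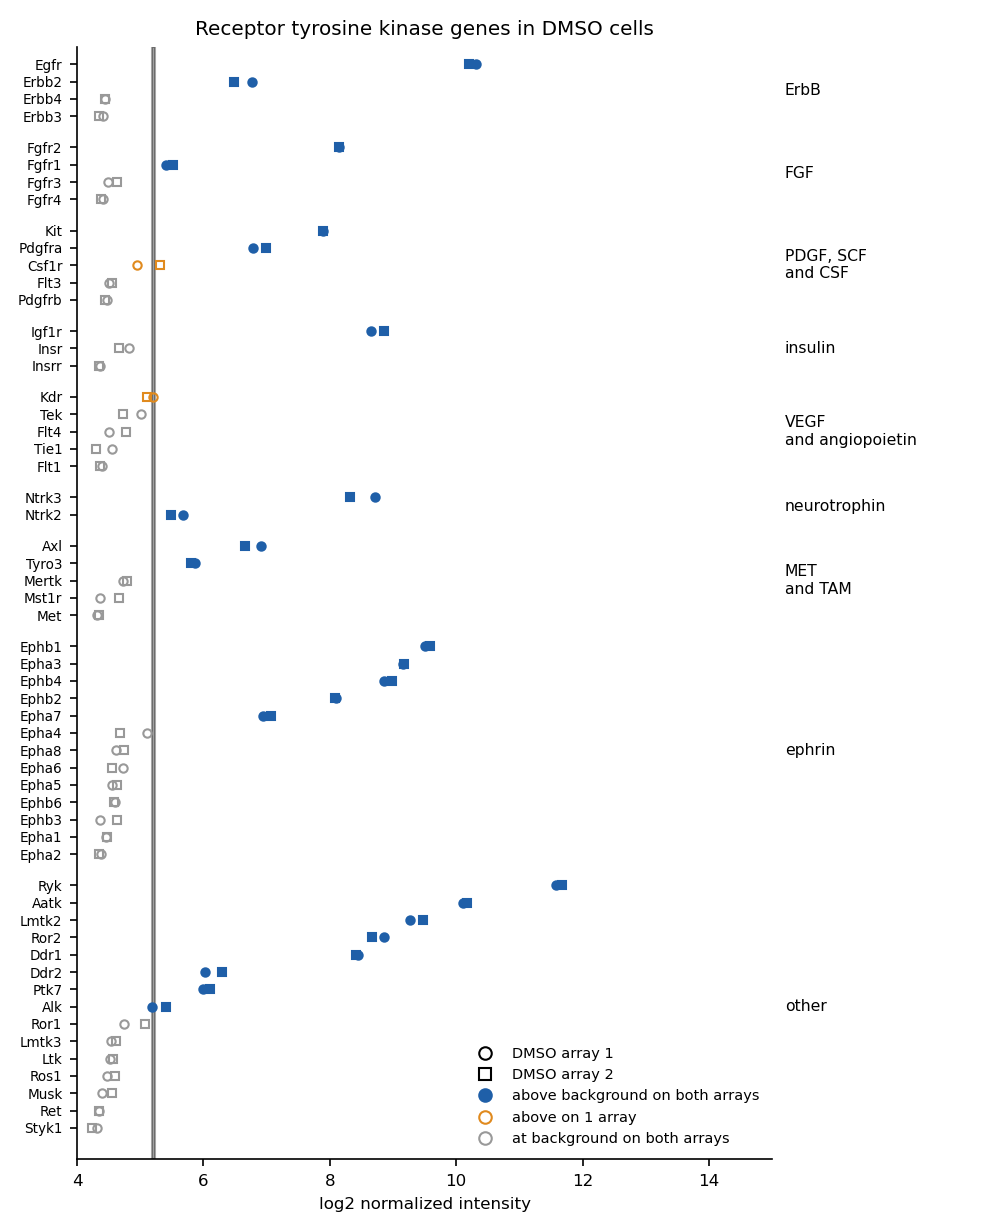
Log2 normalized intensity (x axis) of receptor tyrosine kinase genes on DMSO array 1 (circles) and array 2 (squares), ordered by family, with filled symbols above background on both arrays, open orange symbols above it on 1 array and open grey symbols at background. The VEGF and angiopoietin receptors hold no filled symbol.

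Nuclear receptors passed in 16 of 47 cases (34.0%, median 6.57), and none of the 6 steroid receptor genes did, Esr1 and Nr3c1 included. Rxrb (10.34 and 10.39, 2 of 3 probes), Nr2f6 (9.07 and 9.04), Ppard (9.01 and 9.05, 1 of 2), Nr1h2 (8.80 and 9.06, 2 of 3), Thra (7.99 and 7.82) and Esrra (7.80 and 7.96) were among those above background. Of chemokine and cytokine receptors 9 of 40 passed (22.5%), with Cxcr4, Ngfr (8.42 and 8.64, 1 of 3 probes), Ifngr2 (8.43 and 8.42), Tnfrsf12a (7.58 and 7.81) and Ifngr1 (7.42 and 7.23), and Ackr3, Ccr1 and Ccr2 were at background. Of axon guidance receptors 10 of 21 passed (47.6%), including Plxnb2 (10.75 and 10.74), Neo1 (9.48 and 9.41, 3 of 4 probes) and Robo1 (9.34 and 9.37, 2 of 4).

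Neurotransmitter receptors and channels were mostly at background. Of glutamate receptor genes 5 of 25 passed, with Gria2, an AMPA receptor subunit, at 9.53 and 9.49 (3 of 3 probes), and none of 8 metabotropic receptors passed. Of GABA and glycine receptor genes 2 of 19 passed, Gabrg3 (5.52 and 5.91, 1 of 2 probes) and Glrb (5.42 and 5.28, 1 of 2). Of sodium and calcium channels 2 of 16 passed, Scn1a (5.85 and 5.70) and Scn8a (5.84 and 5.66), both in the lowest part of the range. Of potassium channels 9 of 79 passed (11.4%), with Kcnk1 at 8.92 and 9.01. Of genes for vesicles and transmitter release 15 of 23 passed (65.2%, beside 45.8% of all genes), with Cplx1 (8.97 and 9.12) and Stx1a (8.51 and 8.66).

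Transcription factor families were counted in the same way, beside the 45.8% of all protein-coding genes. Of 39 Hox genes, which pattern the body behind the cerebellum, 1 passed, Hoxa13, at 5.66 and 5.89 with 1 of 3 probes. None of 9 Pax, 13 Nkx, 6 Gata and 3 Runx genes passed. Of 20 Sox genes 9 passed, which besides Sox4, Sox9 and Sox11 included Sox12 (10.80 and 10.71, 2 of 4 probes), Sox21 (11.11 and 10.96, 2 of 3 probes), Sox5 (8.10 and 8.19, 3 of 5 probes) and Sox18 (7.91 and 7.95). Of 9 genes of the Neurod, Neurog and Atoh group Neurod2 alone passed.

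All 4 Nfi genes were above background. Of the E2f genes of the cell cycle 6 of 8 passed, and 3 did with every probe, with E2f6 at 10.69 and 10.71 (3 of 4 probes) and E2f1 at 10.58 and 10.64. Of 43 Fox genes 15 passed (34.9%), among them Foxk2 (9.39 and 9.47), Foxn3 (9.05 and 9.09) and Foxj3 (8.71 and 8.49, 5 of 6 probes). Foxp3, known for regulatory T cells, stood at 10.08 and 10.12 by 1 of 4 probes, and the T cell gene Cd3e was at background. Of 14 POU genes 3 passed, with Pou4f1, of sensory neurons, at 9.74 and 9.41 (1 of 3 probes).

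Irx2 (8.36 and 8.41, 2 of 3 probes) and Irx5 (8.31 and 8.54) passed beside Irx3 of 6 Irx genes, and Tead2 (11.67 and 11.75) of 4 Tead genes. Isl1 (8.27 and 8.42) and Isl2 (5.40 and 5.68) passed among LIM homeobox genes, 5 of 12 in all. Of Klf and Sp genes 11 of 26 passed, including Klf9 (10.05 and 10.19), Klf7 (9.59 and 9.64) and Klf13 (9.69 and 9.44), with Klf2 and Klf4 at background. Atf4 (12.04 and 12.09) and Atf5 (11.64 and 11.28), factors of the stress response, and Jun (7.38 and 7.83) and Fos (6.06 and 6.13) were among 9 of 16 Jun, Fos and Atf genes that passed. Among Zfp zinc finger genes 179 of 324 passed (55.2%), among solute carrier genes 130 of 326 (39.9%) and among Gpr receptor genes 16 of 71 (22.5%).

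Genes of DNA replication and cell division passed in 31 of 37 cases (83.8%), beside 45.8% of all protein-coding genes. Every probe passed in 23 of the 37, or 62.2%, beside 30.3% of all genes. Of 20 genes of the G1 and S phases 20 passed, with a median of 10.34, and all 6 genes of the replicative helicase did, Mcm5 at 12.52 and 12.44 and Mcm4 at 12.07 and 12.20. Of 17 genes of G2 and mitosis 11 passed (64.7%), with Cenpa (13.00 and 12.87), Birc5 (11.46 and 11.39), Top2a (11.43 and 11.35) and Cdk1 (11.31 and 10.99, 1 of 3 probes). Ccna2, Ccnb2, Bub1, Plk1, Kif20a and Cenpe, of the same phases, were at background.

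Of tumour suppressor genes 21 of 27 passed (77.8%) and of oncogenes 20 of 28 (71.4%), beside 45.8% of all protein-coding genes. Cdk4, the partner of cyclin D1, stood at 13.35 and 13.41, Nras at 12.32 and 12.29 (2 of 3 probes), Mdm2, which degrades p53, at 11.00 and 11.22 (2 of 3) and Mycl at 10.98 and 10.95. Trp53 (9.14 and 9.02, 2 of 3 probes) and Cdkn2a (7.03 and 7.13, 3 of 3 probes), named after their values were seen, were both above background. The Myc gene had 2 probes, and the brighter gave detection p-values of 0.0246 and 0.047, while Akt1, Akt2, Cdkn2b, Gfi1 and Gfi1b were at background. The BET genes Brd2 (11.01 and 11.35, 4 of 5 probes) and Brd3 (11.30 and 11.26) passed, and the germ cell member Brdt did not.

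Of 13 genes of the Y chromosome 4 were above background (30.8%). Ddx3y stood at 11.13 and 11.07 (1 of 3 probes), Eif2s3y at 7.72 and 7.46 (1 of 2), Kdm5d at 6.74 and 6.67 (1 of 2) and Uty at 5.56 and 5.57 (1 of 4). All 4 probes of Xist, the RNA that silences an X chromosome in females, were at background, and so were Tsix, Sry and Zfy1.

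For antigen presentation and the interferon response 6 of 23 genes passed (26.1%). B2m stood at 10.40 and 10.30 (2 of 3 probes) and H2-D1 at 7.53 and 7.62 (2 of 3), while H2-K1, Cd74, Ciita, Ifit1 and Irf7 were at background. Of cell surface antigens 13 of 22 passed, including Cd63 (13.09 and 13.10), Cd81 (12.24 and 12.47), Cd9 (10.17 and 10.25) and Cd151 (8.83 and 8.83), with Cd24a, Epha2 and Prom1 at background.

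Genes above background shared a promoter composition that the call did not use. A RefSeq promoter of 300 bases was matched for 15026 of the protein-coding genes, 7045 above background and 7661 at background. The median of observed over expected CG was 0.80 in genes above background, against 0.32 in genes at background, and it was 0.64 in all genes matched. The median GC content was 61.7% above background and 52.7% at background, and a CG ratio over 0.6 was found in 79.2% of promoters above background and 28.6% of those at background. Without the sensory receptor genes the median CG ratio was 0.80 above background and 0.39 at background.

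When promoters were divided into 5 equal classes by this ratio, the share of genes above background was 7.95% in the class of 0 to 0.21, then 23.9%, 57.4% and 69.0%, and 76.1% in the class of 0.89 to 1.51. Each class thus held a larger share of genes above background than the class before it. The number of probes per gene was not held equal between the classes.

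**Figure D4:**
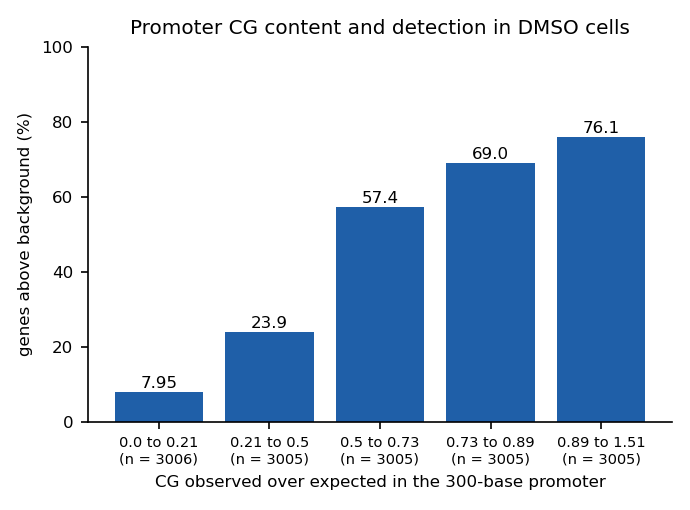
Share of genes above background on both DMSO arrays (y axis, percent) in 5 equal classes of the promoter ratio of observed over expected CG (x axis, with the number of promoters in each). The share is 7.95% in the lowest class and 76.1% in the highest.

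Short motifs were searched on both strands of the same promoters. CCGGAAG, known for ETS factors, was in 20.4% of promoters of genes above background, 6.07% at background and 12.9% of all. GGGCGG, known for SP and KLF factors, was in 68.5% above background, 34.0% at background and 50.7% of all. The palindromic NRF1 motif was in 11.9% above background, 3.09% at background and 7.28% of all. The TATA box TATAAA was in 6.56% above background, 18.0% at background and 12.4% of all, and TGANTCA, known for AP-1, in 3.99% above background, 9.79% at background and 6.99% of all. CCAAT was in 39.6% above background, 37.5% at background and 38.5% of all. The GLI motif GACCACCCA was in 0.227% above background, 0.117% at background and 0.173% of all. The ETS, SP and NRF1 motifs hold CG themselves, and the shares were not compared at equal base composition. A match is not a binding site, and the motifs can overlap.

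The share of genes above background was also taken by chromosome. Without the sensory receptor genes, which lie in clusters, the autosomes lay between 40.7% on chromosome 1 and 55.5% on chromosome 12, and the X chromosome stood at 41.2%. On chromosome 7 the share was 37.7% with the sensory receptor genes and 45.4% without them. On the Y chromosome 4 of 13 genes were above background, those named above.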

How the data were processed

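RNA of SmoWT-MB cells was labelled with biotin and hybridised to Illumina mouse bead arrays, per the labels' protocols. The submitters' processing notes name GenomeStudio 1.9.0 as software. The deposited table gives, per the file headers, a mean bead intensity on a linear scale, not normalized, and a detection p-value for each of 45281 probes and array. The detection p-values move in steps that stand for 936 negative control beads. The deposited gene-level table, whose intensity scale the sources used here do not state, had values for 8620 of the genes above background. Their log2 correlated with the levels given here at 0.999 across genes, and its DMSO columns each had a median of 8.15.

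The arrays were background-corrected from the detection p-values and quantile-normalized over all 6 arrays by neqc (limma 3.58.1, R 4.3.3; offset 16). Everything else was computed in Python 3.11.15 with pandas 2.3.3. Median raw intensities were 56.5 and 55.0, mean raw intensities 408 and 344, and the lowest raw intensity above background was 75.5 and 71.2. The number of arrays limits the precision. The call was also run on simulated arrays, where empty probes and negative beads were drawn from the same distribution. That run cannot test whether real probes have a background of their own. A gene takes the level of its brightest probe above background on both arrays, or of its brightest probe where none is. Of the probes, 27740 carried a current symbol of the RefSeq GRCm38.p6 table, 6111 were given one and 11430 kept their own.

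No test between groups was made, since 1 group is described. The members, lists and families were chosen with earlier results of these data known, and the pattern for Sp genes was narrowed after values were seen. The rule for naming covered all genes of lists of up to 12. Of longer lists it covered up to 8 above background with the highest level and up to 8 at background in alphabetical order. It also covered all genes of the hedgehog, Notch, granule lineage, receptor tyrosine kinase and sex chromosome lists. Many genes within this rule are not named in the text, but the totals include them. Among these are Gsk3b and Btrc of the hedgehog list, Adam17 and Mib1 of the Notch list and Epha1 of the receptor tyrosine kinases. Cdkn2a, Fgf2, Igf1, Nr3c1, Ptprc, Sfrp2, Sox2, Trp53, Wnt4 and Wnt5a fall outside this rule and were named after their values were seen. The genes with the largest differences between the arrays, 10 in number, were named too. Alternatives were other thresholds of the detection p, other normalizations and each array alone.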

Additional observations from a re-analysis of the deposited data

How the results depend on the processing

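No paired analysis was possible because the results come from 1 group and no test. The count of 8622 genes above background was 9432 at a detection p under 0.05, 7808 at 0.001, 8308 after Benjamini-Hochberg adjustment, 9045 with 1 array enough, and between 8795 and 8880 with either array left out. It was 7135 with symbols as deposited, where fewer symbols match a protein-coding gene, and 5717 where every probe of a gene had to pass. The median level of 8.33 was 8.52 with scaling to a common median, 8.60 with the DMSO arrays normalized alone, 8.48 with an offset of 50 and 8.45 without background correction, and 8.33 with either array left out. The median absolute difference between the arrays, 0.11, was 0.19 with median scaling. The causes of these shifts were not tested. Of olfactory receptor genes, 3 of which passed, 27 did at 0.05, 0 at 0.001 and 9 on array 2 alone. Microglia and blood genes above background numbered 2 at 0.05 and 1 on array 2 alone, and liver genes 1 in each case, where none passed on both arrays at 0.01. Where every probe had to pass, the count moved by over 1.5 times, always downward, in 17 of 32 results including the total, whose share was 30.3%. Lists then held 12 receptor tyrosine kinase (24 before), 8 early (16) and 5 mature granule neuron (8), 6 nuclear receptor (16), 5 guidance receptor (10), 4 chemokine and cytokine receptor (9), 3 Purkinje cell (7), 3 oligodendrocyte (6), 2 glutamate receptor (5), 0 GABA and glycine receptor (2) and 1 fibroblast gene (3). Families held 9 Fox (15), 4 Sox (9), 3 E2f (6) and 0 Hox genes (1), and a short list of housekeeping genes held 8 (14). The median CG ratio of promoters of genes above background was 0.79 at 0.05 and 0.80 at 0.001, and that of genes at background 0.30 and 0.35.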
